A study of Mus musculus with 6 samples.

Results

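A set of 9 genes that mark microglia at rest was followed in the brain CD11b+ cells of MRL/lpr and MRL/mpj mice: Tmem119, Cx3cr1, Gpr34, Olfml3, Selplg, Sparc, Slc2a5, Crybb1 and Tgfbr1. These members were chosen by symbol, as genes that define the surface and the identity of homeostatic microglia, and each was found as 1 Ensembl gene among the 55401 genes of the count matrix. The MRL/lpr strain has lost function of Fas, a death receptor gene needed to remove lymphocytes, through the lpr mutation, and develops lupus. MRL/mpj mice share the MRL/MpJ background and served as the controls. All animals were 6-week-old females without treatment. CD11b+ cells were taken with magnetic beads from brains digested with collagenase, which keeps microglia together with any other CD11b+ cell, and bulk RNA was sequenced in 3 libraries per strain. No source states whether the libraries of a strain came from separate animals or from pools, so the p-values below measure the spread between these libraries, which may be technical.

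Microglia are the resident macrophages of the brain. In the healthy tissue they keep a surface and gene program of their own, which depends on TGF-beta from their surroundings and is lowered when the cells become activated. Tgfbr1 is the type I receptor through which TGF-beta acts on SMAD proteins. Cx3cr1 is the receptor for fractalkine, the chemokine that neurons carry on their membrane. Gpr34 is a receptor for lysophosphatidylserine. Selplg (PSGL-1) is a ligand of selectins and Tmem119 is a membrane protein much used to tell microglia from blood-derived macrophages. Sparc and Olfml3 are secreted matrix proteins. Slc2a5 (GLUT5) carries fructose into cells. Crybb1 is a lens crystallin that is also made by developing microglia.

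Of the 9 members, Gpr34 and Sparc were lower in MRL/lpr, Slc2a5 was higher, and the remaining 6 did not pass the test. The 2 that fell were lower by 28.4% and 23.6%, and the rise of Slc2a5 was 24.8%. None of the 9 reached a log2 fold change of 1 at an adjusted p under 0.05 by edgeR's quasi-likelihood test. By that rule 4.67% of all genes were called higher and 3.66% lower. With an unadjusted p under 0.05 in its place, and by DESeq2, 0 members reached that size as well. DESeq2 put Cx3cr1 at 0.97 but gave it no adjusted p, so that gene could not be called there. Among the 19554 genes tested, 11.1% were called higher and 9.06% lower on the adjusted p alone, and these shares stand beside the 1 higher and 2 lower calls among the members. The median log2 fold change of the members was -0.05, and that of all genes tested -0.01. With library size alone as the scale the median of all genes moved to -0.13 and that of the members to -0.18, and the calls over all genes turned from 2178 higher and 1772 lower to 1634 higher and 2790 lower.

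The libraries differed in ways that touch several members. Their totals lay between 45481609 and 49846634 counts. A count of 4 was more common among genes of few counts than 3 or 5, so that 1 read pair appeared to be worth 4 counts, and counting error is larger than the counts alone imply. Among genes with many counts, MRL/lpr replicates 1 and 2 differed by a median coefficient of variation of 2.86% and the MRL/mpj libraries by 3.57% to 4.77%. MRL/lpr replicate 3 differed from its 2 strain mates by 12.1% and 12.3%, and libraries of different strains differed by 16.1% to 19.4%. The 8 genes induced by tissue dissociation were all called higher in MRL/lpr, beside 11.1% of all genes. Their summed levels were 40428 to 46265 CPM (counts scaled to a common library size) against 23819 to 25166 in MRL/mpj. Summed levels of the 10 microglia markers were 21953 to 25239 CPM in MRL/lpr and 25290 to 26058 in MRL/mpj, and none was at 0. Their part in the results below was not tested. In bulk RNA, fewer cells of a type and less RNA per cell cannot be told apart.

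Each member is described by its place in the GENCODE M21 annotation of GRCm38, the build the submitters' notes name. FPKM values (fragments scaled by transcript length and library size) were deposited beside the counts. Dividing one by the other gives the length that the FPKM values had used, which was between 1.11 and 1.12 times the joined exon length of the annotation for each of the 9 genes. The same gene models thus fit the files for all members, up to 1 common factor. The set of RefSeq promoter windows used here covered 6 of the 9 members. The stretches below are shown for Slc2a5, the only member that was called higher, and for Tgfbr1, which stands at the head of the TGF-beta pathway and has 2 starts in RefSeq. They lie upstream of the start, are free of annotated exons, and are written 5′ to 3′ along the gene's strand on GRCm38.p6. Capitals mark the SMAD box, CAGAC or its reverse GTCTG, and the PU.1 core, GAGGAA or its reverse TTCCTC.

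Slc2a5, chr4:150119094-150119235, plus strand: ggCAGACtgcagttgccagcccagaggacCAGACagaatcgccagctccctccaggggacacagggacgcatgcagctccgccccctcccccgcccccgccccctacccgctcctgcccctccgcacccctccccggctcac

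Tgfbr1, first start, chr4:47352972-47353221, plus strand: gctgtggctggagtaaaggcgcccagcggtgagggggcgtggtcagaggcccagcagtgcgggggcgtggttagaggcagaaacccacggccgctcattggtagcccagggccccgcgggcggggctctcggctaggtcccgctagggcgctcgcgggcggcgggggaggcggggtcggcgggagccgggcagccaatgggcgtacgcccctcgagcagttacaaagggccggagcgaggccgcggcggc

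Tgfbr1, second start, chr4:47385966-47386215, plus strand: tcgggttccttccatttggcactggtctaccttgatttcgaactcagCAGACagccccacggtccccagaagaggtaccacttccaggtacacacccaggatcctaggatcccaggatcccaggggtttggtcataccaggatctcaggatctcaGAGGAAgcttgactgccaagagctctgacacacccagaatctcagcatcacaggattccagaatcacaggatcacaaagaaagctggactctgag

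The Slc2a5 stretch, 142 bases of its window of 250, held 2 SMAD boxes, and the full window held 4. The window of the first Tgfbr1 start held neither motif, and that of the second start 1 of each. In windows of 250 bases upstream, a SMAD box was in 42.2% and a PU.1 core in 23.3% of all 32851 RefSeq windows on either strand. A match of such short letters is a description and not a binding site.

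Per length, the members spanned about an order of magnitude. In MRL/mpj the order of FPKM was Sparc (1139 ± 41.5, SD, n = 3), Tmem119 (1000 ± 37.5), Selplg (507 ± 19.9), Gpr34 (505 ± 10.4), Tgfbr1 (244 ± 24.6), Slc2a5 (201 ± 7.25), Olfml3 (162 ± 74.4), Crybb1 (158 ± 2.85) and Cx3cr1 (116 ± 0.627). Sparc, Tmem119 and Selplg were separate in every library, whereas Selplg overlapped with Gpr34, Slc2a5 with Olfml3 and Olfml3 with Crybb1. Only 31 genes of the matrix had a higher mean FPKM than Sparc in this strain, and 276 had a higher one than Cx3cr1. In MRL/lpr Tmem119 came first with an FPKM of 885 ± 143 and Sparc second with 800 ± 7.61, and their libraries overlapped. Olfml3 came last there by its mean, with 108 ± 2.88. Cx3cr1 had a higher mean of 211 only through MRL/lpr replicate 2, at 545.14. In MRL/lpr replicates 1 and 3 it was at 43.81 and 45.25, below Olfml3.

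**Figure D1:**
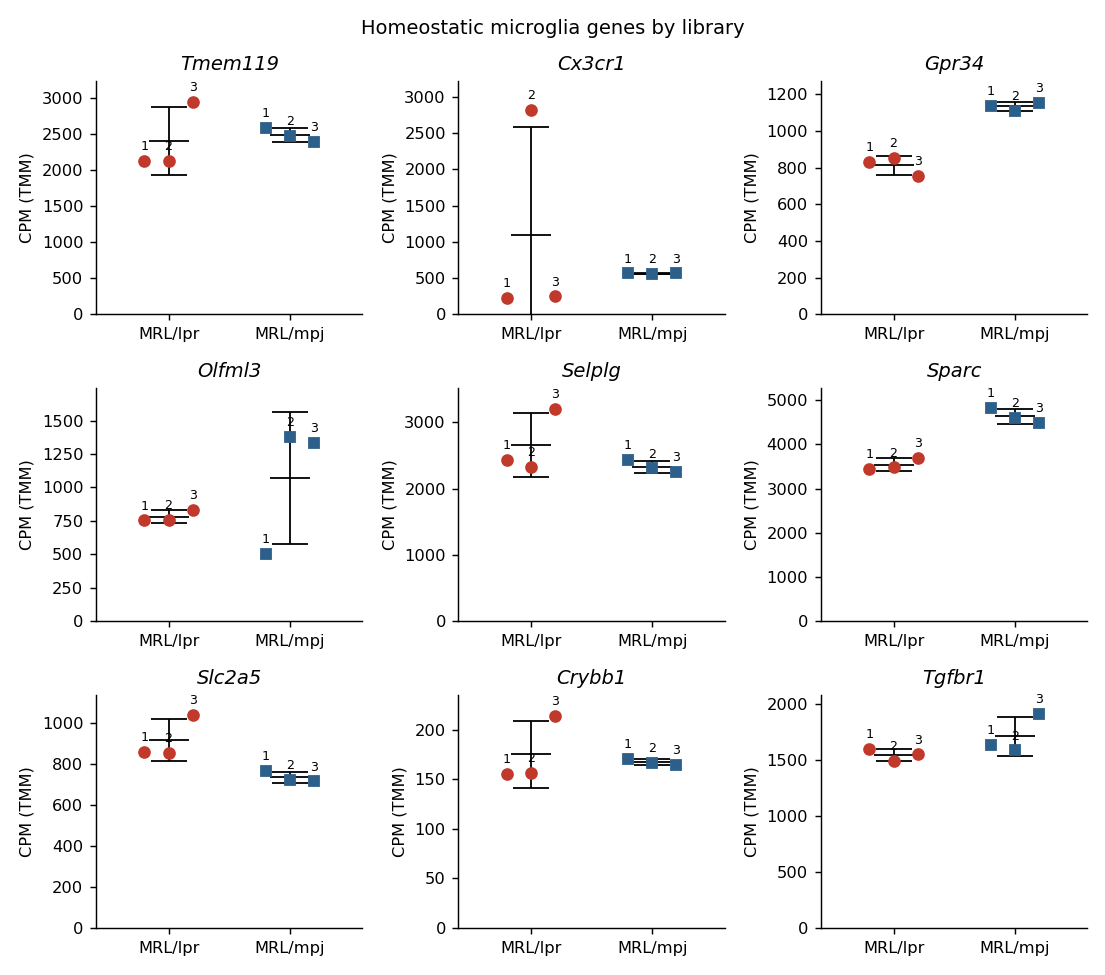
Level of each member in each library, in CPM scaled by the trimmed mean of M-values (TMM), with MRL/lpr as red circles and MRL/mpj as blue squares, each numbered by replicate; black bars are the mean ± SD of 3 libraries, and the lower bar of Cx3cr1 in MRL/lpr runs below the axis. Gpr34 and Sparc separate by strain, while 1 library stands apart for Cx3cr1 (MRL/lpr replicate 2) and for Olfml3 (MRL/mpj replicate 1).

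Gpr34, the lysophosphatidylserine receptor, was lower in MRL/lpr. It lies on chrX:13632089-13640858, plus strand, inside Cask on the opposite strand. MRL/lpr replicates 1, 2 and 3 had 39087, 40032 and 31450 counts, and the MRL/mpj replicates 58481, 55380 and 60065. All MRL/lpr libraries lay below all MRL/mpj libraries, with 811 ± 51.9 CPM against 1133 ± 23.7 (SD, n = 3 each). The log2 fold change was -0.48 (SE 0.06, adjusted p = 0.000607 by the quasi-likelihood test of edgeR after Benjamini and Hochberg). The call was kept in 16 of 16 alternative settings, at values between -0.60 and -0.43. Cask, the scaffold kinase gene around it, had 2060 to 2762 counts in MRL/lpr and 2856 to 3491 in MRL/mpj, far below those of Gpr34.

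Sparc, a secreted glycoprotein that binds collagen, showed the same kind of separation. It lies on chr11:55394500-55423183, minus strand, with no other annotated gene in its span. The MRL/lpr libraries had 161667, 163920 and 154842 counts, and the MRL/mpj libraries 247764, 230046 and 233271. The levels were 3542 ± 143 CPM in MRL/lpr and 4635 ± 171 in MRL/mpj, and the groups did not overlap. The log2 fold change was -0.39 (SE 0.06, adjusted p = 0.00131, edgeR's quasi-likelihood test), and 16 of 16 alternatives kept the call, between -0.51 and -0.36. Sparc is also made by endothelium and fibroblasts. The summed endothelial markers were 1763 to 1927 CPM in MRL/lpr and 1607 to 1654 in MRL/mpj. Of the 8, 2 were called higher and 1 lower, beside 11.1% and 9.06% of all genes. The summed markers of mural cells and fibroblasts were 292 to 375 CPM in MRL/lpr and 605 to 635 in MRL/mpj. Their sum moved in the direction of Sparc, with 5 of the 9 called lower, beside 9.06% of all genes. None of these markers was at 0, and their part in the result was not tested.

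Across all genes tested, 19.6% had every MRL/lpr library above every MRL/mpj library and 19.4% had the reverse. Of the 9 members, 1 was in the first class and 2 were in the second.

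Slc2a5, the fructose carrier, was the member that rose, and by the smallest margin of the 3 calls. It lies on chr4:150119283-150144169, plus strand. Counts were 40442, 40146 and 43370 in MRL/lpr and 39345, 36181 and 37217 in MRL/mpj. Scaled for the library, these became 860, 853 and 1038 CPM against 766, 724 and 715, so that the groups did not overlap but MRL/lpr replicate 3 stood above its mates. This gave a log2 fold change of 0.32 (SE 0.08, adjusted p = 0.0232, edgeR's quasi-likelihood test). The direction was kept in 16 of 16 alternatives and the call in 9. It was lost with library size alone as the scale (0.19, adjusted p = 0.0875) and when any 1 of the MRL/mpj libraries was left out (adjusted p between 0.0556 and 0.0976).

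Cx3cr1, the fractalkine receptor, depended on 1 library. The counts were 10645 in MRL/lpr replicate 1, 132706 in replicate 2 and 10334 in replicate 3, and 28995, 27912 and 29349 in the MRL/mpj replicates. MRL/lpr replicate 2 was the highest of the 6 libraries and its mates were the lowest, while the MRL/mpj libraries lay close together at 562 ± 3.36 CPM (SD, n = 3). In CPM, replicate 2 stood 11.9 times above the mean of the other MRL/lpr libraries and 5.01 times above the MRL/mpj mean. The log2 fold change over all libraries was 0.97 with an SE of 1.19 (95% interval -2.26 to 4.19, adjusted p = 0.664, edgeR's quasi-likelihood test). Without MRL/lpr replicate 2 it was -1.25 with an adjusted p of 3.14e-05, and the MRL/mpj mean was then 2.37 times that of the 2 remaining libraries. The strain difference of Cx3cr1 therefore turned its direction with that library.

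Such a gap was rare. Of 19554 genes, 2 (0.0102%) were at least 4 times higher in MRL/lpr replicate 2 than in any other library: Cx3cr1, and Gm47071, a predicted gene with 377 counts there and 6 to 34 in the others. The other libraries each held 1 to 9 such genes. The other 8 members did not set this library apart: its Tmem119, Gpr34 and Slc2a5 levels were close to those of replicate 1, as the plot of CPM by library shows.

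The Cx3cr1 model is unusual among the members. It has 3 transcripts and spans 168264 bases, chr9:119901616-120069879 on the minus strand, and 9 other genes overlap that span. The most abundant of them, Csrnp1, a transcription factor gene, had 21737, 21457 and 19485 counts in MRL/lpr and 9916, 10249 and 10032 in MRL/mpj. Wdr48, Gorasp1, Ttc21a, Xirp1 and Gm33858 each had at most 3562 counts in a library. None of these genes was apart in MRL/lpr replicate 2.

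**Figure D2:**
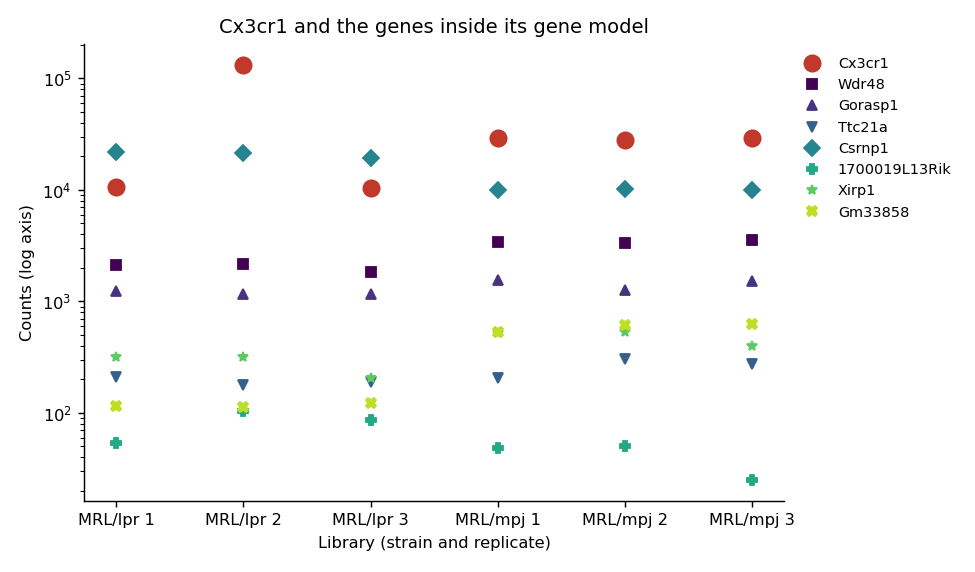
Counts (log axis) of Cx3cr1 and of the genes overlapping its gene model that reached 100 counts, in each of the 6 libraries. Cx3cr1 stands at 132706 in MRL/lpr replicate 2 and at 10645 and 10334 in its strain mates, while Csrnp1 stands between 19485 and 21737 in the 3 MRL/lpr libraries.

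The Cx3cr1 profile was followed most closely by 3 genes over the 6 libraries, judged by the root mean square distance of centred log2 CPM among genes with a mean of at least 5 CPM. Gm44502, a predicted gene, was at a distance of 0.38, with 167, 1014 and 169 counts in MRL/lpr and 456, 377 and 353 in MRL/mpj. It was thus also high in MRL/lpr replicate 2 and low in its mates. Ceacam2 followed at 0.75 and Gins2 at 0.78, which is a poor likeness beside a log2 range of 3.64 for Cx3cr1.

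Olfml3, a secreted olfactomedin-like protein, also depended on 1 library, this time in the controls. It lies on chr3:103722222-103738001, minus strand. The MRL/lpr libraries had 35397, 35600 and 34884 counts, and the MRL/mpj libraries 25849, 68822 and 69340. MRL/mpj replicate 1 held 0.371 of the mean CPM of its mates. The MRL/lpr mean was 0.577 of MRL/mpj replicates 2 and 3 and 1.55 times MRL/mpj replicate 1. The log2 fold change was -0.45 (SE 0.42, 95% interval -1.57 to 0.66, adjusted p = 0.549, edgeR's quasi-likelihood test). Without MRL/mpj replicate 1 it was -0.80 with an adjusted p of 0.000375, the only call in 16 alternatives. The nearest profiles were those of Zscan26 (distance 0.22), Commd5 (0.23) and Ube2l3 (0.24). Zscan26, a zinc finger gene, had 5531, 5850 and 4864 counts in MRL/lpr and 3991, 7891 and 7643 in MRL/mpj, again lowest in MRL/mpj replicate 1.

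Tmem119 and Selplg lie close to each other on chromosome 5, both on the minus strand, at chr5:113793729-113800516 and chr5:113818536-113832644, with 18019 bases between them. Tmem119 had 99987, 100461 and 123195 counts in MRL/lpr and 132885, 123896 and 124753 in MRL/mpj. In CPM, MRL/lpr replicates 1 and 2 were at 2127 and 2134, below the 3 MRL/mpj libraries at 2398 to 2586, and replicate 3 was above them at 2948. Over all libraries the log2 fold change was -0.05 (SE 0.12, 95% interval -0.33 to 0.23, adjusted p = 0.835, edgeR's quasi-likelihood test). Without MRL/lpr replicate 3 Tmem119 was lower in MRL/lpr by the same test, at -0.22 with an adjusted p of 0.00367.

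Selplg had 114595, 109250 and 134018 counts in MRL/lpr and 124882, 115142 and 117059 in MRL/mpj. Its level was 2655 ± 481 CPM against 2328 ± 92.5, again with MRL/lpr replicate 3 highest. The log2 fold change was 0.19 (SE 0.11, 95% interval -0.07 to 0.45, adjusted p = 0.307, edgeR's quasi-likelihood test), and no alternative gave a call. Cmklr1, the chemerin receptor gene within 150 kb on the far side of Tmem119, had 8070, 8013 and 9245 counts in MRL/lpr against 2895, 2723 and 2909, with every MRL/lpr library above every MRL/mpj library, unlike both members.

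Crybb1, the crystallin, was the member with the fewest counts: 7306, 7367 and 8960 in MRL/lpr and 8776, 8345 and 8566 in MRL/mpj. It lies on chr5:112255815-112269585, plus strand. At 175 ± 33.7 CPM against 167 ± 3.10 the groups overlapped, with MRL/lpr replicates 1 and 2 below and replicate 3 above the controls. Crybb1 had a log2 fold change of 0.07 (SE 0.12, adjusted p = 0.762, edgeR's quasi-likelihood test), and its sign turned in 4 of 16 alternatives.

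Tgfbr1 lies on chr4:47353222-47414931, plus strand. Its counts were 75072, 70115 and 64759 in MRL/lpr and 84145, 79256 and 99257 in MRL/mpj, or 1545 ± 53.7 CPM against 1710 ± 173. MRL/mpj replicate 3 was the highest of the 6 libraries, and the groups overlapped by a narrow margin. Its log2 fold change was -0.15 (SE 0.08, 95% interval -0.32 to 0.03, adjusted p = 0.234, edgeR's quasi-likelihood test). A call appeared in 1 of 16 alternatives, that with library size alone as the scale (-0.27, adjusted p = 0.0436).

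**Figure D3:**
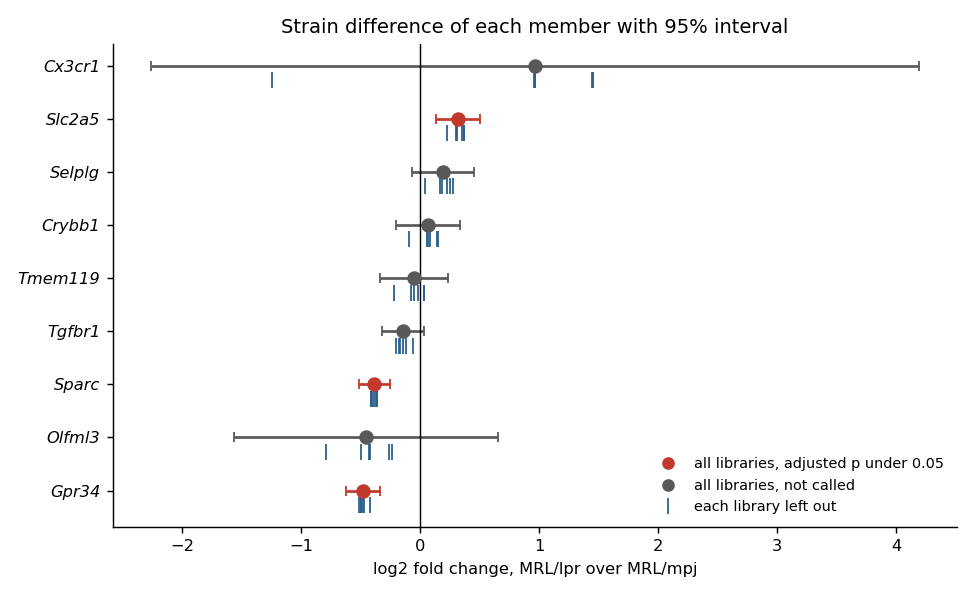
Log2 fold change of MRL/lpr over MRL/mpj for each member (circle, with its 95% interval), and the same value with each library left out in turn (blue ticks). Gpr34 and Sparc stay below 0 throughout, whereas Cx3cr1 ranges from -1.25 to 1.45 and Olfml3 from -0.80 to -0.24.

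The departure of MRL/lpr replicate 3 moved with base composition. Over 5 equal groups of the genes with a mean of at least 5 CPM, from low to high GC content, the median log2 difference of replicate 3 from its mates ran from -0.18 through -0.10, -0.00 and 0.09 to 0.18. Tmem119 (59.1% GC) and Crybb1 (61.8%) were at 0.47 and 0.46, above the median of their group, and Selplg (49.8%) was at 0.43. Gpr34, the member poorest in GC at 37.1%, was at -0.16, and Tgfbr1 (41.0%) at 0.01. With GC content entered as an offset for each library, Gpr34 and Sparc were still called lower and Slc2a5 higher, and Crybb1 was at -0.08. Without MRL/lpr replicate 3 the same calls were made together with that of Tmem119.

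**Figure D4:**
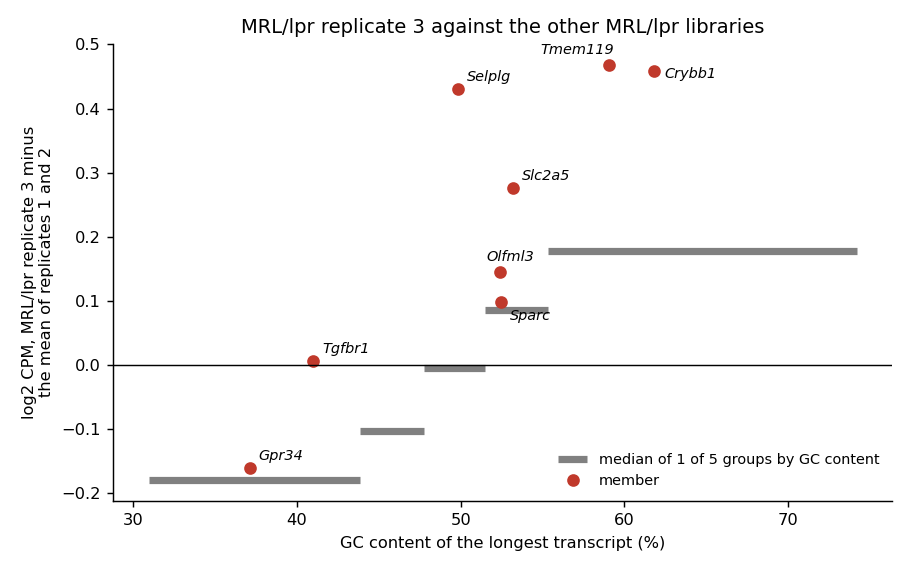
Log2 CPM of MRL/lpr replicate 3 minus the mean of replicates 1 and 2, against the GC content (%) of the longest transcript, for 8 members (red); grey bars are the medians of 5 equal groups of genes by GC content, and Cx3cr1 is left out because replicate 2 decides its value. Tmem119, Selplg and Crybb1 lie above 0.4, and Gpr34 lies at -0.16.

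The wider homeostatic program held calls in both directions. Of 36 other homeostatic microglia genes, 11 were lower and 6 higher in MRL/lpr, beside 9.06% and 11.1% of all genes, and the median log2 fold change was -0.03. Without MRL/lpr replicate 3 the counts were 18 lower and 11 higher, and with library size alone and on both FPKM scales they were 17 lower and 5 higher. Fcrls, an Fc receptor-like gene of microglia, fell furthest, from 73973 to 79508 counts in MRL/mpj to 19037 to 20967 in MRL/lpr (log2 fold change -1.76, SE 0.06, adjusted p = 1.61e-07, edgeR's quasi-likelihood test). Rtn1, a reticulon, was at -1.34, the surface gene Cd34 at -0.79, the protease inhibitor gene Cst3 at -0.40 and the purinergic receptor gene P2ry13 at -0.29, all called lower in 16 of 16 alternatives. Rtn1 is also made by neurons, whose summed markers were 19.9 to 23.8 CPM in MRL/lpr and 34.4 to 38.6 in MRL/mpj, with 2 of the 6 lower, and those of oligodendrocytes were 130 to 153 against 164 to 195. Their part in the result was not tested. Among those called higher, also in 16 of 16, were Rnase4, a ribonuclease (0.70), and Rhob, a small GTPase (0.66). P2ry12, the ADP receptor of microglial processes, had 25098 to 48368 counts in MRL/lpr and 64731 to 69573 in MRL/mpj, without overlap, and its log2 fold change of -0.67 missed the threshold (adjusted p = 0.0566). Csf1r, the growth factor receptor that microglia need (0.07), Trem2 (0.03), Siglech (0.07) and Sall1, the transcription factor of microglial identity (-0.12), did not pass the test. Csf1r was at 9652 and 9341 CPM in MRL/lpr replicates 1 and 2, below MRL/mpj at 9704 to 10094, but at 12351 in replicate 3. Sall1 was at 682 to 701 CPM in MRL/lpr and 732 to 768 in MRL/mpj, without overlap, as were 19.4% of all genes in this direction.

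Around Tgfbr1, 6 of 30 genes of TGF-beta signalling were higher and 5 lower, beside 11.1% and 9.06% of all genes, with a median of -0.05. With library size alone and without MRL/lpr replicate 3 the list had 8 lower calls. Among the ligands and their handling, Tgfb2 was at -0.75, and Ltbp1 and Ltbp3, which store the latent ligand in the matrix, were at -1.36 and -0.55. Thbs1, which can activate the latent ligand, was higher, at 0.75. The microglial ligand gene Tgfb1 (-0.12, adjusted p = 0.507) and the type II receptor gene Tgfbr2 (-0.14, adjusted p = 0.129) did not pass edgeR's quasi-likelihood test. Tgfb1 was at 296 and 314 CPM in MRL/lpr replicates 1 and 2, below MRL/mpj at 350 to 377, but at 404 in replicate 3. Tgfbr2 was at 558 to 594 CPM in MRL/lpr and 618 to 640 in MRL/mpj, without overlap, as were 19.4% of all genes in this direction. Neither value therefore shows that the gene was unchanged. Inside the cell, Smad3 (0.42), the repressor Tgif1 (0.61) and Smurf1, which marks receptors for removal (0.69), were higher. Zfyve9, the adaptor that brings SMADs to the receptor, was lower at -0.53. All of those called here kept their call in 16 of 16 alternatives. Skil (0.59) and Tgfbi (0.26) were called higher and Pmepa1 (-0.45) lower, but in 10, 7 and 12 of 16 alternatives.

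Tgfb2 had at most 941 counts in a library, Ltbp1 700 and Ltbp3 1450, and they are also made by matrix-forming cells. The summed markers of choroid plexus and ependyma were 366 to 381 CPM in MRL/lpr and 1065 to 1149 in MRL/mpj, and those of mural cells and fibroblasts moved the same way, as given beside Sparc. Astrocyte markers summed to 119 to 164 CPM against 199 to 205. Of those 8, 1 was called lower and 0 higher, beside 9.06% and 11.1% of all genes. The part of these cell types in the lower counts of Tgfb2, Ltbp1 and Ltbp3 was not tested.

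No partner of Cx3cr1 passed the test, beside 11.1% and 9.06% of all genes called higher and lower. Of 8 genes of the fractalkine axis, 0 were called by edgeR's quasi-likelihood test, 2 had an unadjusted p under 0.05, and DESeq2 called 1 higher. A higher call of 1 gene also came with a filter at 1 CPM, with counts divided by 4 and without MRL/lpr replicate 3. A lower call of 1 gene came with library size alone and without MRL/lpr replicate 1. Cx3cl1, the ligand, had 983, 701 and 592 counts in MRL/lpr and 1109, 1250 and 973 in MRL/mpj (log2 fold change -0.39, adjusted p = 0.158). Adam10 and Adam17, which cut fractalkine from the membrane, were at -0.13 and -0.02, but each had 1 library well below its strain mates. For Adam10 it was MRL/lpr replicate 3, at 213 CPM, while its mates reached 364 and 396 CPM and MRL/mpj 341 to 374. For Adam17 it was MRL/mpj replicate 1, at 162 CPM, while its mates reached 264 and 265 CPM and MRL/lpr 216 to 234. Neither value therefore shows that the gene was unchanged. Every MRL/lpr library lay above every MRL/mpj library for 2 of the 8, Gnai2 and Arrb2, beside 19.6% of all genes. Gnai2 and Arrb2, which act below many chemokine receptors, were at 0.23 and 0.22 and did not pass the test.

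Around Selplg, 3 of 11 genes were higher and 1 lower, beside 11.1% and 9.06% of all genes. St3gal4, a sialyltransferase that builds selectin ligands, rose from 453 to 597 counts in MRL/mpj to 928 to 1275 in MRL/lpr (log2 fold change 1.17, SE 0.15, adjusted p = 0.000477, edgeR's quasi-likelihood test). The sum of neutrophil markers was 717 to 838 CPM in MRL/lpr and 568 to 634 in MRL/mpj, and that of T cell markers was 13.4 to 16.7 against 2.72 to 3.73. Their part in these counts was not tested. B4galt1 (0.32) was called higher and Gcnt1 (-0.40) lower, in 10 and 11 of 16 alternatives. Selp and Sele, the selectins of vessels, had at most 283 counts in a library.

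Beside Gpr34, P2ry10, another lysophosphatidylserine receptor, found on lymphocytes, was higher in MRL/lpr, with 127 to 208 counts against 29 to 50 (log2 fold change 2.30, SE 0.35, adjusted p = 0.00146, edgeR's quasi-likelihood test). Abhd12 and Abhd16a, which degrade and make the lipid, were at 0.33 and -0.05 and did not pass. T cell markers moved with P2ry10, as given above, and their part was not tested.

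Relatives of the members gave 4 higher and 4 lower calls among the 18 tested of 21 listed, beside 11.1% and 9.06% of all genes. Of the sugar carriers, Slc2a1 (0.43), the common glucose carrier, Slc2a3 (0.82), Slc2a6 (1.53) and Slc2a9 (1.05) were higher alongside Slc2a5. These 4 relatives each kept the call in 16 of 16 alternatives, and Slc2a8 was at -0.43 without a call. The summed markers of endothelium, given beside Sparc, and of neutrophils, given beside Selplg, were also higher in MRL/lpr. Of the 8 endothelial markers, 2 were called higher and 1 lower, beside 11.1% and 9.06% of all genes, with a median of 0.04. Of the 8 neutrophil markers, 3 were called higher and 0 lower. The part of both cell types in the sugar carrier calls was not tested. Of the relatives of Sparc, Sparcl1 was lower at -0.38 and Spock2 was at -0.14 without a call. Of those of Olfml3, Olfml2a (-1.06) and Olfml2b (-0.92) were lower, with 259 to 299 and 838 to 999 counts in MRL/lpr against 608 to 697 and 1878 to 2096. The markers of mural cells and fibroblasts given beside Sparc (median log2 fold change -0.70) moved with both, and their part was not tested. The summed astrocyte markers given above were lower in MRL/lpr as well. Every MRL/lpr library lay below every MRL/mpj library for 4 of the 8 and above for 2, beside 19.4% and 19.6% of all genes. The part of these markers in the Sparcl1 result was not tested. Acvr1b, a type I receptor related to Tgfbr1, was lower at -0.98 (adjusted p = 7.84e-05, edgeR's quasi-likelihood test). Of the crystallins, Cryba4 had 809 to 1111 counts and no strain difference that passed, and Cryba2 and Crybb2 were listed at 0 in every library.

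**Figure D5:**
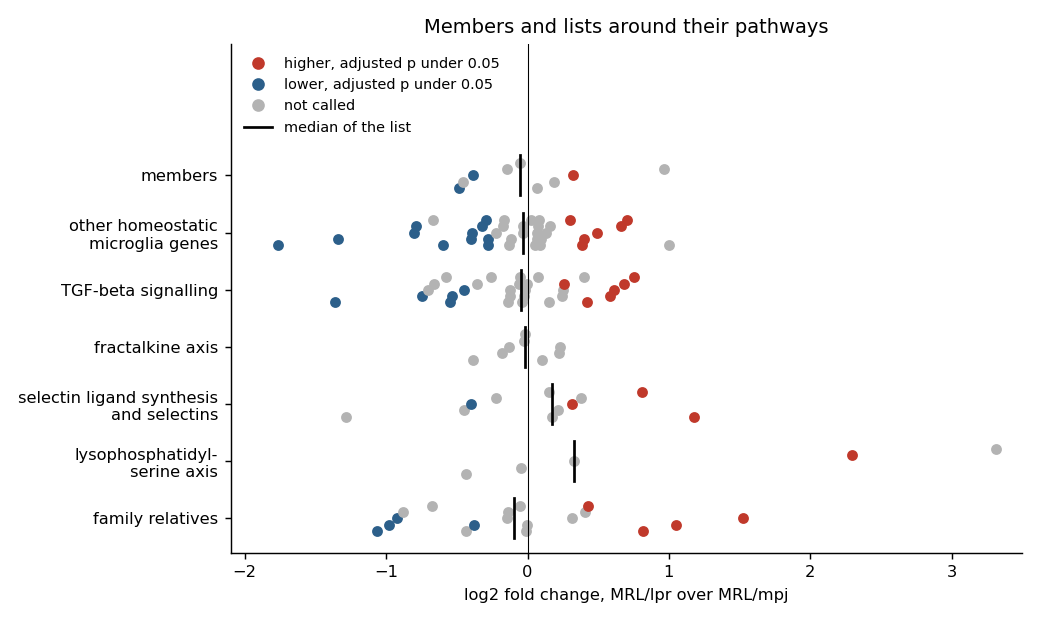
Log2 fold change of MRL/lpr over MRL/mpj for the tested genes of the 9 members and of 6 lists around them (1 point per gene, spread vertically only for legibility); red and blue points had an adjusted p under 0.05, grey points did not, and black lines are list medians. Points of both colours appear in 4 of the 6 lists and among the members, and the fractalkine axis has only grey points.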

How the data were processed

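Brain CD11b+ cells of 6-week-old MRL/lpr and MRL/mpj mice were profiled by bulk RNA-seq, 3 libraries per strain, with groups taken from the sample titles. The authors deposited raw counts per gene and FPKM values. The submitters' processing notes name cutadapt 1.9.3, HISAT2 2.0.4, Cufflinks, Cuffdiff 2.2.1 and GRCm38. The labels describe rRNA-depleted total RNA and the published methods purified mRNA; the counting tool was not given in the sources used here. Since 1 read pair appeared to be worth 4 counts, counts divided by 4 were also tested.

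Counts were tested over the whole matrix with edgeR 4.0.16 in R 4.3.3: filterByExpr (minimum count 10, minimum total 15), TMM scaling, robust quasi-likelihood fits, 2-sided tests and Benjamini-Hochberg adjustment at 0.05 over 19554 genes. Levels are CPM on TMM-scaled libraries. Alternatives were DESeq2 1.42.0, other scalings and filters, limma 3.58.1 on log2(FPKM + 0.1) and log2(FPKM + 1), a replicate block and each library left out. GC offsets were added after the data had been seen. Scripts were tested on simulated counts.

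Symbols were matched for 55141 of 55401 Ensembl IDs. The genes named are the 9 members, genes of the listed pathways with their values, the 3 genes nearest in profile to a member with a log2 range of at least 1, and genes apart in the same library as Cx3cr1; cell markers are given as sums. Neighbours in the genome were named after their values were seen. The members and lists were chosen with earlier results of these data known. Some genes of the lists are not reported here by name.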

Additional observations from a re-analysis of the deposited data

How the results depend on the processing

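Gpr34 and Sparc kept their direction and call in all 16 alternative settings other than the GC offsets, and with those as well, and Selplg, Tgfbr1, Slc2a5 and Olfml3 kept their direction. The number of members called higher fell from 1 to 0 with library size alone, with log2(FPKM + 0.1), with log2(FPKM + 1) and with the replicate block, and ranged from 0 to 1 with each library left out. Genes called lower rose from 1772 to 2790 with library size alone and ranged from 1177 to 1971 with each library left out. Genes of the 6 lists called lower rose from 21 to 32 with library size alone and ranged from 15 to 32 with each library left out. The causes were not tested. Cx3cr1 turned negative with log2(FPKM + 0.1) (-0.18), log2(FPKM + 1) (-0.17), the replicate block (-0.19) and without MRL/lpr replicate 2 (-1.25), with a range of -1.25 to 1.45 over the libraries left out. Tmem119 turned positive without MRL/lpr replicate 1 (0.0322) and without replicate 2 (0.0275), and ranged from -0.219 to 0.0322 with each library left out. Crybb1 turned negative with library size alone (-0.0624), both FPKM scales (-0.0705 and -0.07), without MRL/lpr replicate 3 (-0.0981) and with GC offsets (-0.0765), and ranged from -0.0981 to 0.1486 over the libraries left out.

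The replicate numbers were not taken to pair libraries across strains: deviations of same-numbered libraries correlated at -0.04, -0.02 and -0.03. With the replicate block 0 members were called higher and 2 lower, and Slc2a5 was at 0.31 (adjusted p = 0.0547). Over all genes, the block gave 1754 higher and 1309 lower calls.

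The tests rest on 3 libraries per strain, and the values of Cx3cr1 and Olfml3 each rest on 1 library that cannot be checked against another of its kind.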

Other observations

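Counts of 1 pair of overlapping genes outside the members exchanged from library to library. Itgam, the gene of the CD11b protein used to select the cells, had 51426, 49889 and 40761 counts in MRL/lpr and 35116, 61718 and 52853 in MRL/mpj, while Gm49368, a predicted gene that overlaps it, had 44978, 46374 and 49385 against 63855, 30271 and 44931. Their sums lay between 90146 and 98971 counts in the 6 libraries, a narrower range than that of either gene alone. These 2 genes were looked at after their values were seen.

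Both Nrros and Smad2, from the TGF-beta list, had 1 library apart from its strain mates. Nrros, which holds latent TGF-beta on microglia, had 7212, 2572 and 6556 counts in MRL/lpr and 5714 to 6327 in MRL/mpj. Smad2 had 3455 and 3463 counts in MRL/mpj replicates 1 and 2 and 1519 in replicate 3, against 1493 to 1833 in MRL/lpr. Neither passed edgeR's quasi-likelihood test, with adjusted p of 0.939 for Nrros and 0.318 for Smad2. Mef2c, a transcription factor of microglia, was likewise uneven in MRL/lpr, at 12476, 13303 and 4902 counts against 5024 to 6264 in MRL/mpj, and did not pass the same test (adjusted p = 0.131).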
